A study of Rattus norvegicus with 10 samples.

Results

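The 10 genes described here are the 2 corticosteroid receptors and 8 genes that glucocorticoids induce: Nr3c1, Nr3c2, Fkbp5, Tsc22d3, Zbtb16, Sgk1, Pdk4, Cdkn1a, Errfi1 and Ddit4. They were chosen by gene name from a table of 32623 genes, each matched 1 row, and all 10 passed the filter on low expression. RNA was sequenced from the cerebral cortex of 5 rats given electroacupuncture (EA), current passed through inserted needles, and of 5 control rats. The EA rats were adult male Sprague-Dawley rats whose needles, at a point on the crown and a point under the nose, carried current of alternating low and high frequency. The control rats were of the same strain, sex and age class and were bound for the same time without stimulation. All rats were anesthetized with pentobarbital and perfused with saline before the cortex was taken, and no unbound or undisturbed rat was among the samples used here. The question put to these genes was whether stimulated rats and bound controls differed in their response to stress hormone.

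Corticosterone, the main glucocorticoid of the rat, is released from the adrenal gland during stress and crosses into the brain. It binds the mineralocorticoid receptor (Nr3c2) with high affinity and the glucocorticoid receptor (Nr3c1) with lower affinity. The bound receptors enter the nucleus and act on glucocorticoid response elements, at many of which transcription increases. Fkbp5 is among the genes most used to read this response in brain, and its protein in turn lowers the affinity of the glucocorticoid receptor for hormone.

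The stretch upstream of Fkbp5 is shown because Fkbp5 is the usual readout of the response. That of Tsc22d3 is shown because it held the only response element core found in the start site windows of these genes. Both are the 250 bases before an annotated start site in RefSeq on the GRCr8 assembly, and both lie on the minus strand. Capitals mark CpG in the Fkbp5 sequence and the core ACANNNTGT in the Tsc22d3 sequence.
Fkbp5, chr20:6543556-6543805: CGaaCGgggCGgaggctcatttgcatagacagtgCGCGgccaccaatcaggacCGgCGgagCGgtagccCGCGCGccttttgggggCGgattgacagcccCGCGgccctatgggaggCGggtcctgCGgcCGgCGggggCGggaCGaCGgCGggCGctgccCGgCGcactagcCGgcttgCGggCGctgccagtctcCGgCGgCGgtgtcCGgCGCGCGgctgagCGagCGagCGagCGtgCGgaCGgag
Tsc22d3, chrX:109065431-109065680: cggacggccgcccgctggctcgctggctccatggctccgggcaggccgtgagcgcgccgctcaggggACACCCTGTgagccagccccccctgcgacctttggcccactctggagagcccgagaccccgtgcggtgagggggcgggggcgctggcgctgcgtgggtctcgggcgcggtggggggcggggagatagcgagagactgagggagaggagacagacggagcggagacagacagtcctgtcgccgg

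Promoter windows of 250 bases before to 50 bases after the start were matched for 8 of the 10 genes, in 13 windows, and Nr3c2 and Zbtb16 had no entry. The element arm AGAACA, or TGTTCT on the other strand, was in 0 of the 13 windows, against 20.7% of all 33469 windows. The core ACANNNTGT, which reads the same on both strands, was in 1 of the 13, starting 183 bases before a start site of Tsc22d3, against 6.86% of all windows. The other Tsc22d3 windows, at chrX:109009985-109010284 and chrX:109066340-109066639, held no core. The Tsc22d3 row measured here spans chrX:111884295-111887906 on Rnor_6.0, less than the GRCr8 distance from the core window to chrX:109009985-109010284. It is thus too short to reach from 1 of these windows to the other, and the marked stretch may not belong to it. Which of these start sites belongs to the row was not tested. The full palindrome, AGAACA and TGTTCT around NNN, which contains both motifs above, was in 0 of the 13 and in 5 of all windows (0.0149%). The Fkbp5 window had 77.0% GC and 52 CpG, 41 of them in the 250 bases shown, against medians of 51.7% GC and 7 CpG over all windows. These are matches of letters in short windows and say nothing of receptor binding there or farther away.

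The libraries held 47843590 to 60941939 counts in EA rats and 55223193 to 61707722 counts in control rats. Levels are given as FPKM, fragments per kilobase of transcript scaled to the mapped fragments of the library. A gene was called where edgeR's quasi-likelihood test gave a Benjamini-Hochberg adjusted p under 0.05 and the fold change exceeded 1.2. The sample labels number the libraries within each group and do not state that each is a separate rat. This was assumed throughout, so p-values measure the spread between these libraries. Libraries EA 2 and EA 5 stood apart, with 1986 and 2442 FPKM summed over structural RNA (small nuclear, nucleolar and ribosomal RNA and the like), against 1218 to 1342 FPKM in the other EA libraries and 1075 to 1171 FPKM in control libraries. The neuron markers of the cortex label were all measured, with Slc17a7, the vesicular glutamate transporter of cortical neurons, at 326 FPKM on average in EA rats and 323 FPKM in control rats. Of these 7 markers 0 were called by edgeR, against 0.0198% of all genes tested, and 5 lay above 0 and 2 below. Gad1 and Gad2, the enzymes that make GABA, were higher in EA at an unadjusted p under 0.05 (log2 fold change 0.15 and 0.19). Of all genes tested 6.59% were higher at that p. Summed endothelial markers were 71.1 to 80.2 FPKM in EA rats and 82.7 to 96.2 FPKM in control rats, without overlap. Summed oligodendrocyte markers were 889 to 1148 FPKM in EA rats and 1004 to 1448 FPKM in control rats. In bulk tissue, fewer cells of a type and less RNA per cell cannot be told apart, and the part of these shifts in the values below was not tested.

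In the coordinates of the table, on Rnor_6.0, Fkbp5 (ENSRNOG00000022523) lies at chr20:7976713-8019020 and Tsc22d3 (ENSRNOG00000056135) at chrX:111884295-111887906, both on the minus strand and both protein-coding. Nr3c1 (ENSRNOG00000014096) lies at chr18:31728373-31749647 and Nr3c2 (ENSRNOG00000034007) at chr19:34448289-34752695, also on the minus strand.

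None of the 10 genes was called between EA and control rats: 0 of 10 in edgeR, 0 of 10 in DESeq2 and 0 of 10 in limma. Over all 15169 genes tested the share called was 0.0198%, 3 genes, in edgeR and 1.11%, 168 genes, in DESeq2. Limma on log2 FPKM called 2 genes with a pseudocount of 0.1 and 4 with 1. A count of 0 among 10 lay near the background in each. Adjusted p ran between 0.339 and 0.994 in edgeR. At an unadjusted p under 0.05, 1 of the 10 passed (Cdkn1a, higher in EA), against 13.7% of all genes tested. The EA and control libraries overlapped for all 10, where 3.04% of all genes had groups that did not overlap. Fold changes lay above 0 on the log2 scale for 8 genes and below 0 for 2, with a median of 0.05, and the median size of the change was 0.083, against 0.102 over all genes tested. For 4 of the 10, Nr3c1, Nr3c2, Sgk1 and Ddit4, the 95% interval of the fold change lay within 1.2-fold in both directions.

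**Figure D1:**
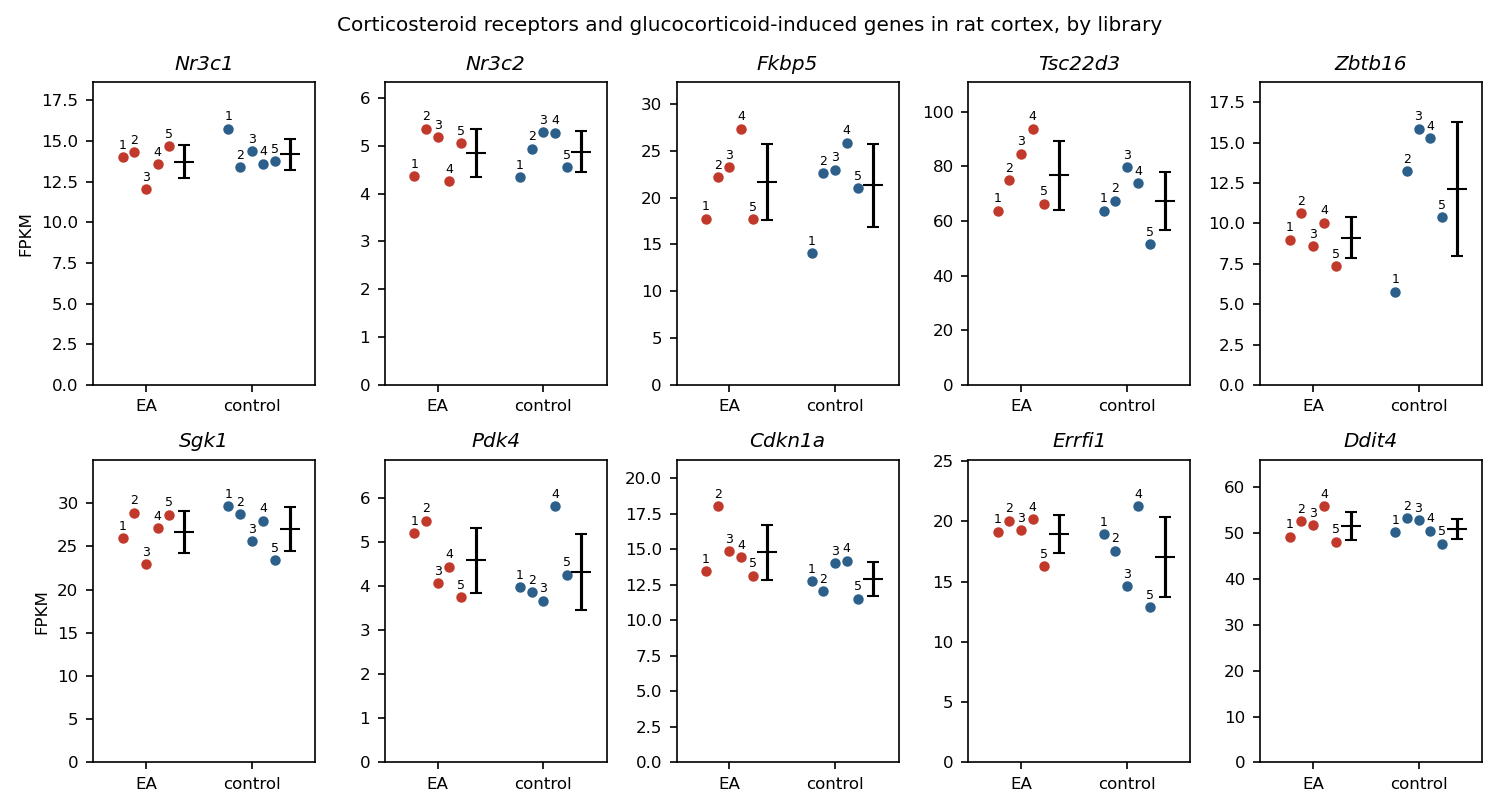
FPKM of each of the 10 genes (vertical axes, FPKM) in every library, EA on the left and control on the right, with bars at the group mean and SD. The EA and control points overlap in every panel, and Zbtb16 reaches from 5.77 to 15.88 FPKM among control rats.

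The receptors come first. Nr3c1, the glucocorticoid receptor, had 14.00, 14.31, 12.04, 13.59 and 14.69 FPKM in EA 1 to 5, against 15.77, 13.39, 14.37, 13.61 and 13.77 FPKM in control 1 to 5. The groups overlapped between 13.39 and 14.69 FPKM, with control 1 highest and EA 3 lowest. The means were 13.7 ± 1.02 FPKM in EA rats and 14.2 ± 0.958 FPKM in control rats (SD, n = 5 each), a log2 fold change of -0.03 (SE 0.06, edgeR adjusted p = 0.893). The 95% interval of the fold was 0.892 to 1.08.

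Nr3c2, the mineralocorticoid receptor, had 4.36, 5.36, 5.17, 4.25 and 5.06 FPKM in EA rats, against 4.34, 4.93, 5.29, 5.27 and 4.55 FPKM in control rats. Low and high libraries stood in both groups. The means were 4.84 ± 0.499 FPKM in EA rats and 4.88 ± 0.426 FPKM in control rats (SD, n = 5 each), with a log2 fold change of 0.01 (SE 0.09, edgeR adjusted p = 0.969) and an interval of 0.876 to 1.16 for the fold. The sign of so small a difference turned with the scaling and the library left out. An opposite-strand gene overlaps Nr3c2 and took at most 3 counts in any library.

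The ratio of Nr3c2 to Nr3c1, both per length, describes the balance of the receptors. It was 0.312 to 0.429 in EA rats, with EA 3 highest, and 0.275 to 0.387 in control rats, with control 1 lowest. The means were 0.354 ± 0.0492 in EA rats and 0.346 ± 0.0446 in control rats (SD, n = 5 each). The log2 difference of 0.035 gave p = 0.786 in an exact two-sided permutation test over 252 assignments.

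Of the genes that glucocorticoids induce, Fkbp5 had 17.75, 22.21, 23.28, 27.37 and 17.72 FPKM in EA rats, against 14.08, 22.59, 23.00, 25.89 and 21.01 FPKM in control rats. The highest library was 1.54 times the lowest among EA rats and 1.84 times the lowest among control rats, with control 1 lowest and EA 4 highest of all. Means were 21.7 ± 4.07 FPKM in EA rats and 21.3 ± 4.41 FPKM in control rats (SD, n = 5 each). The log2 fold change was 0.05 (SE 0.15, edgeR adjusted p = 0.920), and the 95% interval of the fold, 0.822 to 1.31, included changes larger than 1.2-fold. Leaving out each library gave -0.058 (without control 1) to 0.13 (without control 4).

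Tsc22d3 encodes GILZ, a leucine zipper protein with anti-inflammatory action. It had 63.70, 74.85, 84.60, 93.75 and 66.33 FPKM in EA rats, against 63.74, 67.39, 79.72, 73.69 and 51.48 FPKM in control rats. EA 4 was the highest and control 5 the lowest library, and the rest overlapped. The means were 76.6 ± 12.6 FPKM in EA rats and 67.2 ± 10.7 FPKM in control rats (SD, n = 5 each), a log2 fold change of 0.22 (SE 0.13, edgeR adjusted p = 0.480) with a fold interval of 0.959 to 1.40. It was 0.14 without EA 4 and 0.13 without control 5, and at most 0.29 with any other library left out.

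Zbtb16 encodes PLZF, a zinc finger repressor of transcription. It had 8.996, 10.63, 8.61, 10.06 and 7.35 FPKM in EA rats, against 5.77, 13.25, 15.88, 15.30 and 10.41 FPKM in control rats. Control 1 was the lowest library of all, while 3 of the other control libraries lay above every EA library. The means were 9.13 ± 1.28 FPKM in EA rats and 12.1 ± 4.14 FPKM in control rats (SD, n = 5 each), so that the coefficient of variation was 14.0% in EA rats and 34.2% in control rats. The log2 fold change was -0.38 (SE 0.22, edgeR adjusted p = 0.464) with a fold interval of 0.554 to 1.07. Without control 1 it was -0.55 (adjusted p = 0.106), and without control 3 it was -0.26 (adjusted p = 0.703), both in edgeR.

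**Figure D2:**
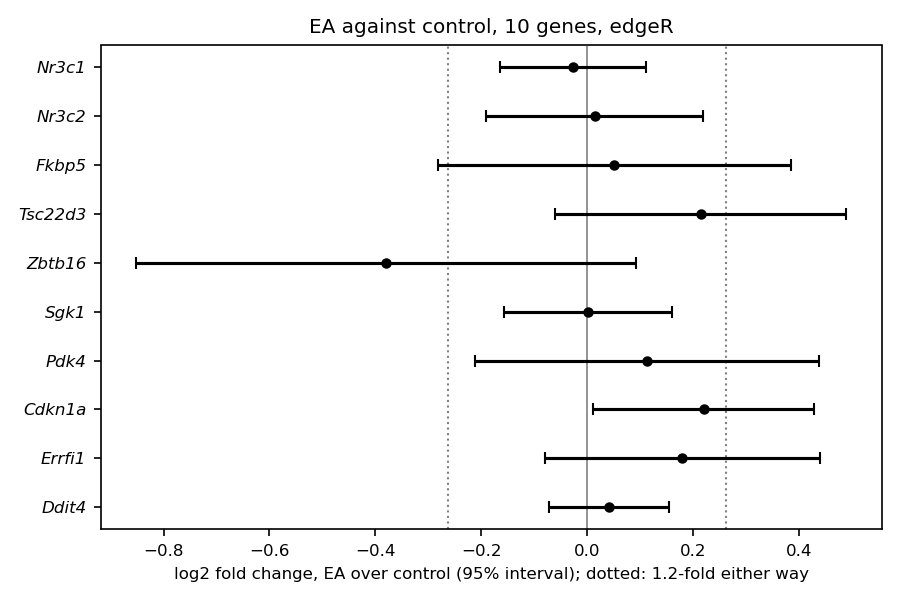
Log2 fold change of EA over control for each of the 10 genes (horizontal axis) with its 95% interval from edgeR, dotted lines at 1.2-fold either way. The interval crosses 0 for 9 genes, lies above 0 for Cdkn1a alone, and is widest for Zbtb16.

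Sgk1, a kinase that acts on ion channels and transporters, had 25.91, 28.91, 22.97, 27.07 and 28.66 FPKM in EA rats, against 29.65, 28.70, 25.60, 27.95 and 23.39 FPKM in control rats. The groups lay over each other. The means were 26.7 ± 2.42 FPKM in EA rats and 27.1 ± 2.54 FPKM in control rats (SD, n = 5 each), with an adjusted p of 0.994 in edgeR and a fold interval of 0.897 to 1.12.

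Pdk4, which inhibits the pyruvate dehydrogenase complex and so spares glucose, had 5.20, 5.48, 4.07, 4.44 and 3.74 FPKM in EA rats, against 3.98, 3.86, 3.67, 5.81 and 4.25 FPKM in control rats. Its highest library was control 4, which stood apart from the other controls. The means were 4.59 ± 0.737 FPKM in EA rats and 4.31 ± 0.862 FPKM in control rats (SD, n = 5 each). The log2 fold change was 0.11 (SE 0.15, edgeR adjusted p = 0.786) with a fold interval of 0.864 to 1.36. Leaving out each library gave 0.041 (without EA 2) to 0.24 (without control 4).

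Cdkn1a encodes p21, an inhibitor of cyclin-dependent kinases. It had 13.45, 18.04, 14.86, 14.46 and 13.16 FPKM in EA rats, against 12.75, 12.04, 14.04, 14.21 and 11.53 FPKM in control rats. EA 2, a library with high structural RNA, was the highest, and 3 EA libraries lay above every control library. The means were 14.8 ± 1.95 FPKM in EA rats and 12.9 ± 1.19 FPKM in control rats (SD, n = 5 each), and the log2 fold change was 0.22 (SE 0.10). The edgeR quasi-likelihood p was 0.0399, and 0.339 after adjustment over all genes tested, with a fold interval of 1.01 to 1.35. Without EA 2 the log2 fold change was 0.14, and the edgeR p was 0.115 (adjusted p = 0.483). The unadjusted p was also above 0.05 without EA 3, control 1, control 2 or control 5, and without EA 2 and EA 5 together (log2 fold change 0.18, edgeR adjusted p = 0.595). With all libraries it was 0.0575 in edgeR on library totals, and 0.0649 and 0.0647 in limma with a pseudocount of 0.1 and 1. It was 0.0269 in DESeq2, and in edgeR 0.0390 with another scaling, 0.0390 and 0.033 with other filters and 0.0471 with the replicate block.

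Errfi1, an inhibitor of the epidermal growth factor receptor, had 19.16, 20.06, 19.30, 20.17 and 16.28 FPKM in EA rats, against 18.93, 17.58, 14.64, 21.27 and 12.86 FPKM in control rats. Control 4 was the highest library and control 5 the lowest. The means were 19.0 ± 1.58 FPKM in EA rats and 17.1 ± 3.35 FPKM in control rats (SD, n = 5 each). The log2 fold change was 0.18 (SE 0.12, edgeR adjusted p = 0.542) with a fold interval of 0.946 to 1.36. It was 0.096 without control 5 and 0.26 without control 4.

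Ddit4, or REDD1, restrains the growth kinase complex mTORC1. It had 49.26, 52.65, 51.82, 55.93 and 48.20 FPKM in EA rats, against 50.29, 53.27, 52.86, 50.59 and 47.71 FPKM in control rats, the narrowest spread of the 10 genes with a highest to lowest ratio of 1.17. The means were 51.6 ± 3.04 FPKM in EA rats and 50.9 ± 2.24 FPKM in control rats (SD, n = 5 each). The log2 fold change was 0.04 (SE 0.05, edgeR adjusted p = 0.776) with a fold interval of 0.951 to 1.11, and 0.016 (without EA 4) to 0.073 (without EA 5) with each library left out.

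On the FPKM scale, which allows genes to be compared per length, the order of the mean levels over all 10 libraries was Tsc22d3 (71.9), Ddit4 (51.3), Sgk1 (26.9), Fkbp5 (21.5), Errfi1 (18.02), Nr3c1 (14.0), Cdkn1a (13.9), Zbtb16 (10.6), Nr3c2 (4.86) and Pdk4 (4.45). Tsc22d3 was above Ddit4 (with overlapping ranges), Ddit4 above Sgk1 and Zbtb16 above Nr3c2 in 10 of 10 libraries. Nr3c1 and Cdkn1a, and Nr3c2 and Pdk4, did not differ beyond their spread, each pair keeping its order in 6 of 10 libraries, and the ranges of the remaining neighbours overlapped too, in 7 to 9 libraries of the stated order.

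**Figure D3:**
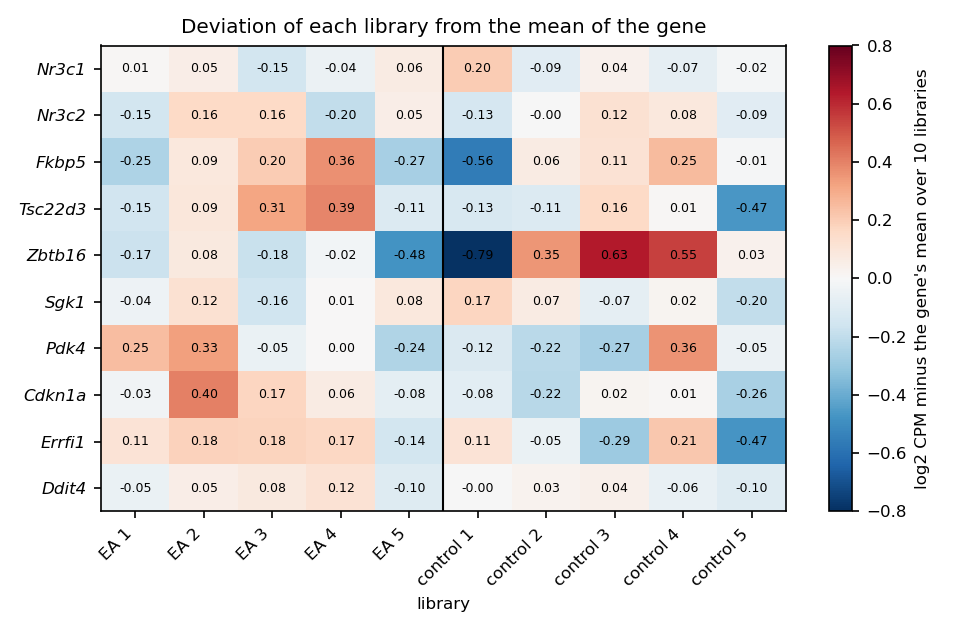
Log2 CPM of each gene (rows) in each library (columns, EA left of control) minus that gene's mean over the 10 libraries, in colour and in digits. Control 1 is lowest for Fkbp5 and Zbtb16 and highest for Nr3c1, and each row has both signs within the control columns.

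Whether rats high in Fkbp5 were also high in the other members was asked across the 10 rats on the log2 CPM scale (9 relations). Nr3c1 ran against Fkbp5 (Pearson r = -0.79, permutation p = 0.00748, adjusted over the 9 relations 0.0673; Spearman rho = -0.66, permutation p = 0.0435, adjusted 0.161). Zbtb16 ran with it (r = 0.73, permutation p = 0.0175, adjusted 0.0786; rho = 0.55, permutation p = 0.105, adjusted 0.190). Tsc22d3 ran with it by rank (rho = 0.82, permutation p = 0.00578, adjusted 0.0520; r = 0.59, permutation p = 0.0737, adjusted 0.221). None of the 9 passed an adjusted p of 0.05, although 2 of them did so without EA 4, Nr3c1 and Zbtb16 (r = -0.81 and 0.83, adjusted p = 0.0331 each by permutation).

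The relations of Nr3c1 and Zbtb16 to Fkbp5 rested in part on the extreme rats, which was not seen for Tsc22d3. Without control 1 and EA 5, the libraries farthest from the Fkbp5 median, r was -0.41 for Nr3c1, 0.26 for Zbtb16 and 0.69 for Tsc22d3. With group means removed they were -0.78, 0.83 and 0.61. Over all 15168 other genes tested, 99.3% had a higher r to Fkbp5 than Nr3c1, 1.53% a higher one than Zbtb16 and 5.15% a higher one than Tsc22d3, which is a description across genes that are not independent. The summed oligodendrocyte markers also ran against Fkbp5 (r = -0.71, permutation p = 0.0205, adjusted over 11 library measures 0.225; rho = -0.49), with r = -0.45 without the same 2 libraries, and the part of tissue makeup in these relations was not tested. The genes with the highest r to Fkbp5 were AC096317 (0.94), Saraf (0.94), Lmod1 (0.93), Macroh2a1 (0.93) and Slc4a11 (0.92) over the 10 libraries, given as a description with no test, and the EA and control libraries overlapped in each.

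**Figure D4:**
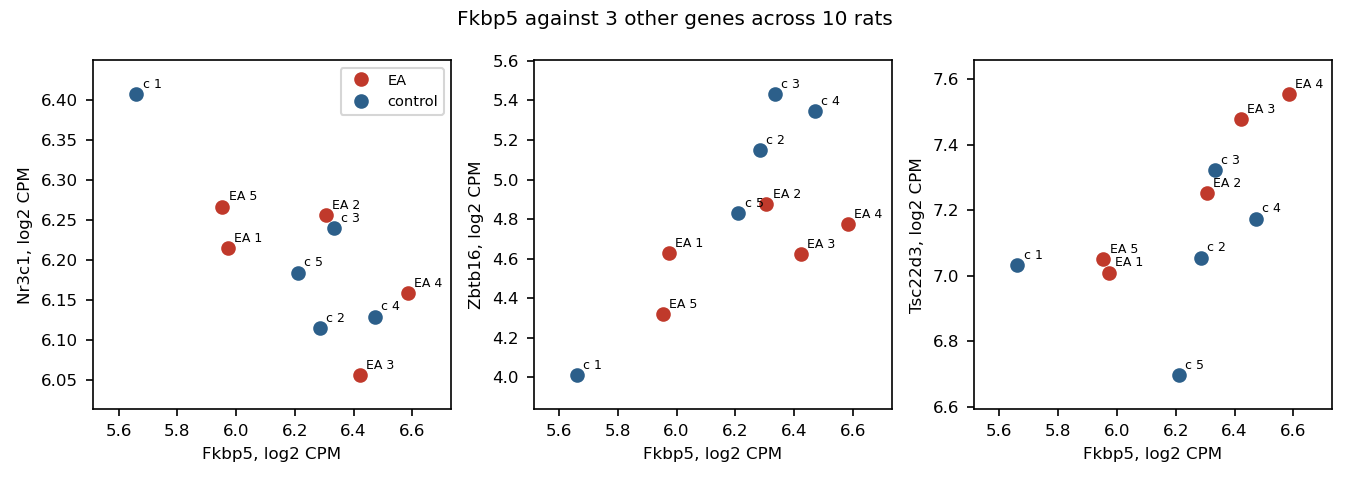
Log2 CPM of Nr3c1, Zbtb16 and Tsc22d3 (vertical axes) against log2 CPM of Fkbp5 (horizontal axis), 1 point a library, EA and control marked apart. Control 1 lies far to the left in each panel. For Zbtb16, control 2, control 3 and control 4 sit above every EA point, and control 5 sits below EA 2.

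Beyond the 10 genes, 30 other glucocorticoid-induced genes were tested and 0 were called by edgeR or DESeq2, which called 0.0198% and 1.11% of all genes tested. At an unadjusted p under 0.05 in edgeR, 2 were higher and 2 lower in EA, against 6.59% and 7.15% of all genes tested. The median log2 fold change was -0.04, against -0.0018 over all genes tested. The 4 with the lowest p were Tob2, a restrainer of cell proliferation, at 0.29 (edgeR adjusted p = 0.190), Dusp1, a phosphatase that shuts off MAP kinases, at 0.39 (0.342), Xdh, which oxidises purines to uric acid, at -0.39 (0.274), and Arrdc2, an arrestin domain protein, at -0.24 (0.302). Groups did not overlap for 1 of the 30, against 3.04% of all genes tested. This was Tob2, at 9.03 to 10.7 FPKM in EA rats and 7.07 to 8.97 FPKM in control rats.

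The chaperone complex holds the receptors ready to bind hormone. Of 12 members tested, 0 were called by edgeR, against 0.0198% of all genes tested. At an unadjusted p under 0.05, 5 were higher in EA and 0 lower. The median log2 fold change of the 12 was 0.10. Hsp90aa1, an inducible HSP90 subunit, had 177 to 197 FPKM in EA rats and 151 to 163 FPKM in control rats, a log2 fold change of 0.26 (SE 0.04). It was the 1 gene of the 12 whose groups did not overlap, against 3.04% of all genes tested. The edgeR quasi-likelihood adjusted p was 0.0897, and it lay between 0.060 and 0.316 over the other edgeR and limma settings. DESeq2 called Hsp90aa1 (adjusted p = 5.33e-05) among the 1.11% of all genes that it called. Stip1, which links HSP70 to HSP90, had a log2 fold change of 0.19 (edgeR adjusted p = 0.183), Ptges3, the p23 cochaperone, 0.19 (0.233), and Hsp90ab1, the constitutive HSP90, 0.15 (0.257). The count of 5 of 12 is given beside 6.59% of all genes tested, as a description.

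Of 12 receptor coregulators 0 were called by edgeR or DESeq2, which called 0.0198% and 1.11% of all genes tested. At an unadjusted p under 0.05, 1 was higher and 1 lower in EA, against 6.59% and 7.15% of all genes tested. Across the 12 coregulators the median log2 fold change was -0.03. Among those with the lowest p were Hdac2, a histone deacetylase, at 0.18 (edgeR adjusted p = 0.254), Smarca4, a chromatin remodeller, at -0.06 (0.502), and Ncor1, a corepressor, at 0.08 (0.536). Of the 9 genes listed for corticosteroid supply and clearance 7 were found in the table and 6 tested. Of these 0 were called by edgeR or DESeq2 and 0 passed an unadjusted p of 0.05, against 13.7% of all genes tested. Hsd11b1, which regenerates active hormone in the cell, averaged 13.2 FPKM in EA rats and 14.2 FPKM in control rats, with a log2 fold change of -0.08 (edgeR adjusted p = 0.649). Crhbp, which binds corticotropin-releasing hormone, was at 0.10 (0.832), Srd5a1, which reduces steroids, at 0.07 (0.857) and H6pd, which supplies the cofactor of Hsd11b1, at 0.04 (0.935).

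**Figure D5:**
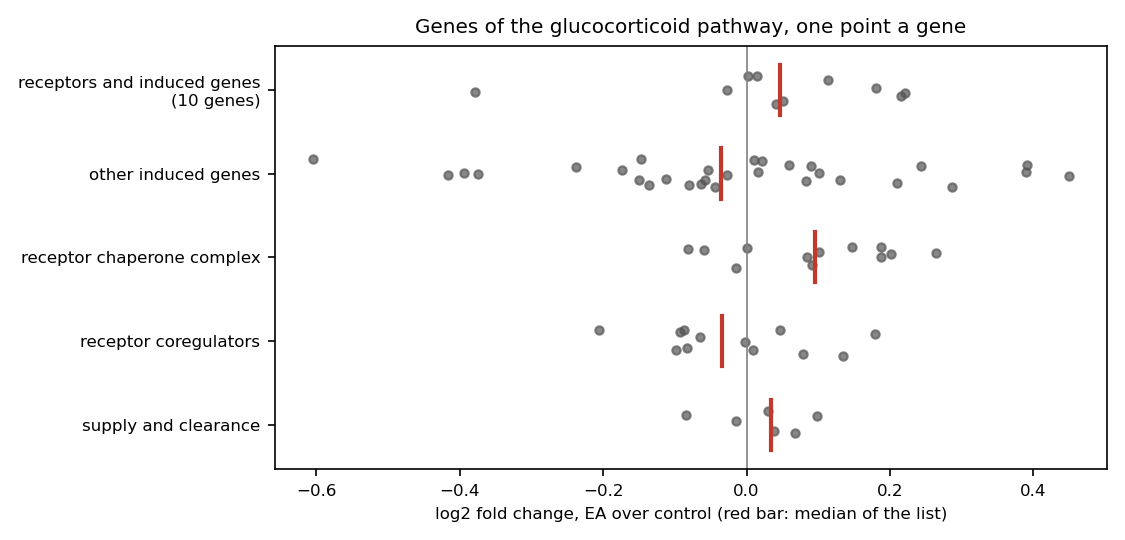
Log2 fold change of EA over control for each gene tested (points) in the 10 genes and the 4 further lists, with the median of each list. All lists spread around 0, and the chaperone complex has 9 of its 12 genes above 0.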

How the data were processed

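Cortex RNA of 5 EA and 5 control rats was selected for poly(A), sequenced in paired ends, and the authors assembled the reads. Per the labels, the submitters' processing notes name Bowtie 0.12.2, HISAT2 2.0 and StringTie 1.3.0, with gene coordinates on Rnor_6.0. The deposited table holds read counts per gene, not normalized, and FPKM per gene computed by the authors. How the counts were drawn from the assembly is not given in the sources used here. Listed FPKM of 0.0001 stood for 0.

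Genes with FPKM of at least 0.5 in at least 5 libraries were tested on counts with edgeR 4.0.16 in R 4.3.3, with library sizes scaled by TMM, a quasi-likelihood fit and adjustment by Benjamini-Hochberg. A gene was called at adjusted p under 0.05 and fold above 1.2. DESeq2 1.42.0 and limma 3.58.1 (on log2 of FPKM + 0.1 or + 1) were alternatives, with other scalings, filters, a replicate block and each library left out. Log2 CPM used a prior count of 2. Permutation tests of relations used 100000 resamples drawn in numpy 2.4.6. Fits were tested on simulated data. Members and lists were chosen with earlier results of these data known. Named from each further list were called genes, otherwise the 4 with the lowest p, and the 5 genes most like Fkbp5. A gene that this rule names among the coregulators is not reported here. Promoters came from RefSeq.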

Additional observations from a re-analysis of the deposited data

Results flagged for a closer look

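Among 22 groups of 5 libraries examined, chance alone would mark about 1 in 20, and 2 had a library far from the others. Errfi1 in EA 5 was 16.3 FPKM, the lowest EA library, with the other EA libraries between 19.16 and 20.17 FPKM. Pdk4 in control 4 was 5.81 FPKM, the highest control library, with the other control libraries between 3.67 and 4.25 FPKM.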

How the results depend on the processing

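Under 20 alternatives, 0 of the 10 genes was called in any, and 6 of the 10 kept their sign. Over all genes edgeR called 3, DESeq2 168 and the replicate block 0, and leaving out each library gave 1 (without EA 5 or control 5) to 5 (without EA 3). Libraries of the same replicate number had correlations of -0.0026 to 0.0605. These do not decide whether the rats were paired, since single genes may still follow the number. With the replicate block, 3 of the 10 genes passed an unadjusted p of 0.05, Tsc22d3, Cdkn1a and Errfi1, against 1 in the reported setting. Their log2 fold changes were then 0.21, 0.21 and 0.20, and 0 of the 10 were called. DESeq2 called 1 of the other listed genes, Hsp90aa1. The relations to Fkbp5 passing adjustment numbered 0 to 2 when each library was left out. The log2 difference of the receptor ratio ran between -0.045 and 0.079.

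Nr3c2 was -0.0095 with library totals, -0.012 and -0.010 with limma and a pseudocount of 0.1 and 1, and -0.049 without EA 2 and EA 5. Sgk1 was -0.017, -0.019, -0.018 and -0.064 in the same order, and -0.0010 with every gene that had a count. Leaving out each library gave -0.025 to 0.062 for Nr3c2, -0.044 to 0.051 for Sgk1, -0.049 to 0.028 for Nr3c1, -0.058 to 0.13 for Fkbp5, -0.053 to 0.14 for H6pd, -0.033 to 0.19 for Crhbp and -0.0076 to 0.19 for Srd5a1. Over all genes the median shift from the reported setting was -0.021 with library totals. It was -0.024 and -0.023 with limma and a pseudocount of 0.1 and 1. The causes of the sign changes were not tested. With 5 rats a group, the intervals of Fkbp5, Tsc22d3, Zbtb16, Pdk4, Cdkn1a and Errfi1 reached past 1.2-fold, so that changes of that size are not excluded for them.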
